A study of Mus musculus with 10 samples.

Results

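The dopamine receptors and the genes through which Drd2 neurons signal were followed in ribosome-bound RNA of Drd2-expressing, mossy cell-enriched populations of the mouse hippocampus. The genes were Drd1, Drd2, Drd3, Drd4 and Drd5 (the dopamine receptors), Adora1 and Adora2a (adenosine receptors), Gnal (a G protein alpha subunit) and Ppp1r1b (DARPP-32), 9 of the 54838 genes counted, chosen by symbol as the receptor family and its classical striatal partners. Mossy cells are the glutamatergic neurons of the dentate hilus. The libraries came from Drd2-Cre;Eef1a1 LSL.eGFPL10a/+ mice, males of about 10 weeks for which no treatment is stated, in which the Drd2-Cre line ER44 switches on an EGFP-tagged ribosomal protein L10a, and RNA bound to tagged ribosomes was precipitated with EGFP antibodies (translating ribosome affinity purification, TRAP). All libraries share this genotype, and they differ in the part of the hippocampus, 5 Dorsal against 5 Ventral, each a pool of tissue from 5 mice, so pools and not animals are the replicates. Per the study's methods the mice gave both parts, but whether libraries of equal number came from the same mice is not stated. The Cre line also marks sparse interneurons of the CA fields and neurons of the ventral subiculum, which the dissection aimed to remove. RNA from unprecipitated tissue was not analysed here, so levels describe the precipitates and not an enrichment over tissue.

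Dopamine receptors fall into a D1 class (Drd1 and Drd5), which couples to stimulatory G proteins and raises cAMP, and a D2 class (Drd2, Drd3 and Drd4), which couples to inhibitory G proteins and lowers it. In striatal neurons, where this signalling is best known, Gnal links D1 and adenosine A2a receptors to adenylyl cyclase 5, and cAMP-dependent protein kinase turns DARPP-32 into an inhibitor of protein phosphatase 1. Indirect-pathway striatal neurons carry Drd2 together with Adora2a, and the inhibitory A1 receptor, product of Adora1, is common on hippocampal neurons.

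Of the 9 genes, 6 were translated at levels that could be tested, and 1 of these, Drd5, was called dorsal-enriched. Gnal and Adora1 were the most abundant, Drd2 was the most abundant dopamine receptor in every library, Drd1 and Drd5 were low, Adora2a was close to the detection limit, and Drd3 was not detected. The counts per gene were scaled to library size (CPM) with TMM factors, and genes above 1 CPM in at least 2 libraries (16806 genes) were tested with edgeR's quasi-likelihood test. Calls needed an adjusted p below 0.05 and, after adding 1 to the mean CPM of each group, a log2 ratio beyond 0.58 in either direction. By this rule 15.7% of all tested genes were dorsal-enriched, and a further 9.85% were ventral-enriched. Drd5 was 1 of 6, a share near that background. None of the 6 was called ventral-enriched by edgeR or DESeq2, and none was lower in dorsal libraries at an unadjusted p below 0.05, while 5 were higher. At that unadjusted p 24% of all tested genes were higher and 20.8% lower in dorsal libraries. Drd3, Drd4 and Adora2a did not pass the filter. The pools are the replicates, so p-values measure the spread between pools, and in such bulk precipitates fewer cells of a type and less RNA per cell cannot be told apart.

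The sequences around annotated starts of the 3 dopamine receptors that passed the filter are shown. That of Drd2 is shown because Drd2 regulatory sequence directs the Cre of these mice. Those of Drd5 and Drd1 are shown because these had the highest dorsal to ventral ratios of the 3. The sequences are RefSeq windows on GRCm38.p6, 250 bases before to 50 after an annotated start. Capitals mark GGGCGG, the letters of a GC box, on either strand. The RefSeq start of Drd2, base 49340403, lies upstream of the start of its GENCODE gene model. The RefSeq starts of Drd5, base 38319509, and Drd1, base 54055658, lie inside their GENCODE gene models. Part of the sequence before these starts is therefore gene body, and the Drd1 match lies after its RefSeq start. The Drd2 window is chr9:49340153-49340452 on the plus strand, the Drd5 window chr5:38319259-38319558 on the plus strand, and the Drd1 window, 1 of its 2, chr13:54055609-54055908 on the minus strand.
Drd2: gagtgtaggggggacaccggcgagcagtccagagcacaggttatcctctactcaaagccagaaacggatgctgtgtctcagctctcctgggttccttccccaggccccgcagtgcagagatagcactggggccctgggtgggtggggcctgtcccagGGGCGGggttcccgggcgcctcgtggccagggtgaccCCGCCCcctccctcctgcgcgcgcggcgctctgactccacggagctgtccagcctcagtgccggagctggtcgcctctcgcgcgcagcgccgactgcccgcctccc
Drd5: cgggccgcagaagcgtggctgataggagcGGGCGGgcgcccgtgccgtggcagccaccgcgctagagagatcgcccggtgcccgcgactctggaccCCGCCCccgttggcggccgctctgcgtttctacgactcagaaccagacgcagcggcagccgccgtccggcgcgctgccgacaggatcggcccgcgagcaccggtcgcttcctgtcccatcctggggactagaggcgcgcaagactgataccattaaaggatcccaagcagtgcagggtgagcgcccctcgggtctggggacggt
Drd1: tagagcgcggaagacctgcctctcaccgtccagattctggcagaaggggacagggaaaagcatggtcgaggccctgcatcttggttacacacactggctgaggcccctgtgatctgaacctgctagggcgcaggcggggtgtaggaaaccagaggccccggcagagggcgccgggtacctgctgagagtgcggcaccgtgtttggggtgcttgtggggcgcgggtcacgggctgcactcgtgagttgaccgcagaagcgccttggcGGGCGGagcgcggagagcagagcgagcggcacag

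Windows were read for 6 of the 9 genes, no entry matched Adora2a and Ppp1r1b, and the window of Gnal was not used here. The Drd2 and Drd5 windows each held 2 copies of the letters and have the same GC content, 70.3%, and the Drd1 window shown held 1 copy at a GC content of 65.7%. Among 32851 mouse promoter windows of this length 35.7% held at least 1 copy and 19.5% at least 2, so that the letters are common. The Drd4 window held 3 copies, 1 of the 2 Adora1 windows held 3 and the other 0, and the Drd3 window, at a GC content of 42.0%, held 0. The letters TGACGTCA of a cAMP response element, present in 1.79% of all windows, and TATAAA, present in 13.6%, were in none of the windows of these genes. A match describes letters only and is no evidence of a binding site.

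Drd2 (ENSMUSG00000032259, chr9:49340627-49408177, plus strand, GRCm38) encodes the D2 receptor, an inhibitory receptor that is also an autoreceptor on dopamine neurons. Its level was 31.7, 24.4, 23.3, 31.3 and 29.6 CPM in replicates 1 to 5 of the Dorsal group and 18.3, 27.9, 17.5, 18.1 and 21.6 CPM in those of the Ventral group. The groups overlapped through Ventral replicate 2, which lay above Dorsal replicates 2 and 3. The means were 28.1 ± 3.95 and 20.7 ± 4.36 CPM (SD, n = 5 each), a log2 fold change of 0.45 (SE 0.17, 95% interval 0.09 to 0.80) with an adjusted p of 0.0517 by edgeR, so Drd2 was not called. With each library's trend of GC content and exonic length removed, the log2 fold change was 0.63 with an adjusted p of 0.0133, and Drd2 was then called dorsal-enriched. By mean CPM, Drd2 stood above 63.9% of the tested genes.

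Drd3 and Drd4, the other two members of the D2 class, were at or below the detection limit. Drd3 had 0 counts in all 10 libraries, where 3 counts, the upper limit that a count of 0 allows, correspond to 0.141 to 0.282 CPM. Drd4 had 4 counts in all over the Dorsal libraries (0, 2, 0, 1 and 1) and 0 over the Ventral libraries. A difference between the groups was not detectable for either gene at this depth. These limits cover counting error only, since copies made during amplification are not separate molecules.

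**Figure D1:**
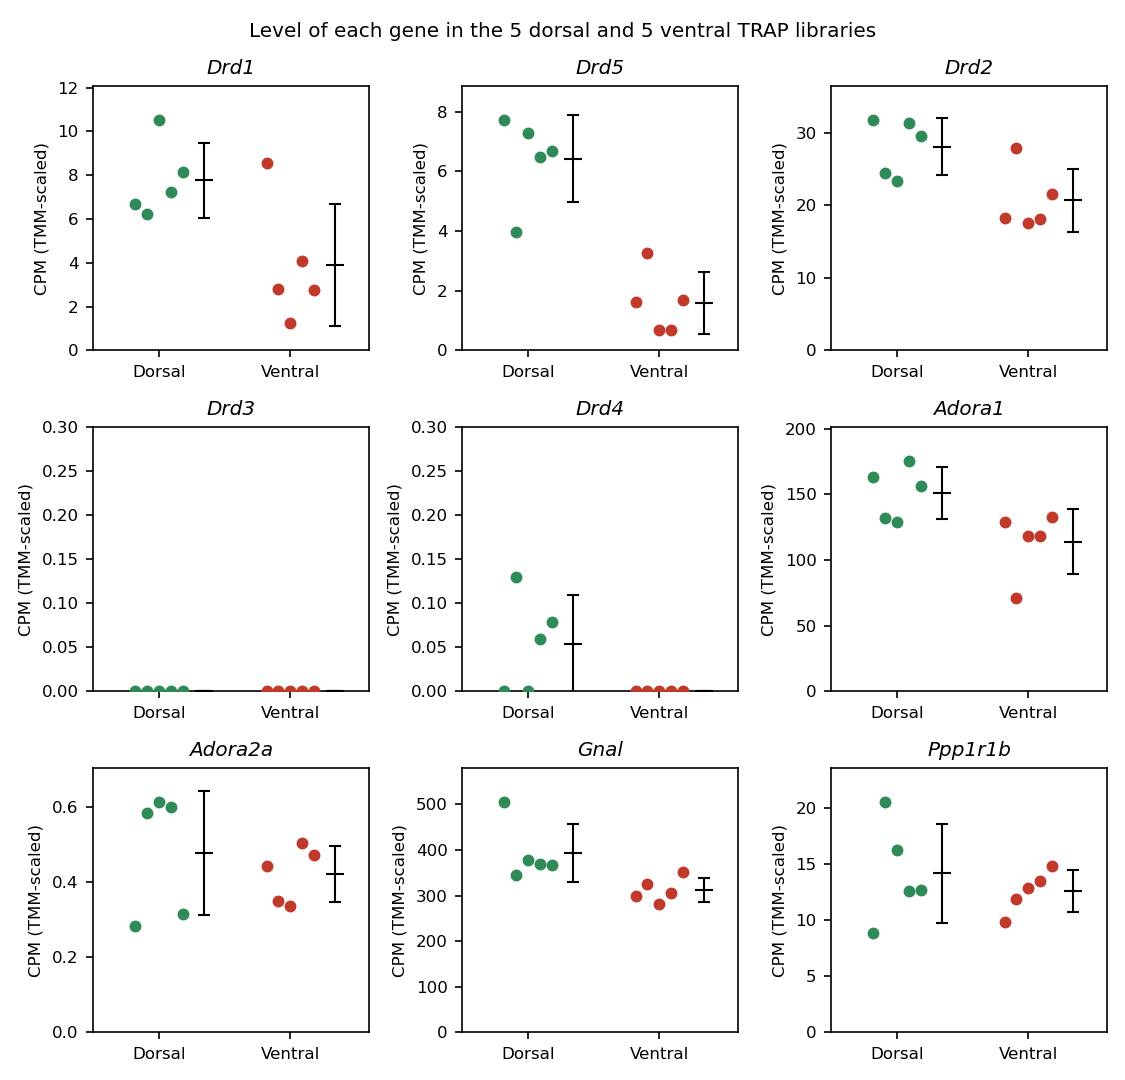
Level of the 9 genes in each of the 5 Dorsal (green) and 5 Ventral (red) libraries, in TMM-scaled CPM on a linear axis from 0, with the mean and SD of each group in black. The groups separate for Drd5 (lowest Dorsal 3.96, highest Ventral 3.25 CPM) and overlap for Drd1, Drd2, Adora1, Adora2a, Gnal and Ppp1r1b, while Drd3 is 0 throughout.

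Drd5 (ENSMUSG00000039358, chr5:38319367-38322518, plus strand), the D1-class receptor with the higher affinity for dopamine, was the dopamine receptor with the largest dorsal to ventral ratio among the 3 tested. Its level was 7.70, 3.96, 7.28, 6.47 and 6.67 CPM in replicates 1 to 5 of the Dorsal group and 1.61, 3.25, 0.674, 0.695 and 1.70 CPM in those of the Ventral group. All 5 Dorsal libraries lay above all 5 Ventral ones, the nearest pair being Dorsal replicate 2 and Ventral replicate 2. Among all tested genes 9.81% had Dorsal libraries wholly above Ventral ones, and 8.36% the reverse, which none of the 9 showed. The means of 6.42 ± 1.46 and 1.59 ± 1.05 CPM (SD, n = 5 each) gave a log2 fold change of 2.03 (SE 0.36, 95% interval 1.25 to 2.81), 4.08-fold higher in dorsal libraries, with an adjusted p of 0.00121 by edgeR. The counts behind this were low, 443 over the Dorsal and 121 over the Ventral libraries. The gene passed the filter in both groups, with 8 of 10 libraries above 1 CPM. Of its exonic length 48.6% lies opposite the antisense gene Gm26560, for which at most 0.24 CPM in Dorsal libraries and 0.775 CPM in Ventral ones were counted. Whether the counting used strand is not stated, so reads of the shared stretch cannot be assigned with certainty.

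Drd1 (ENSMUSG00000021478, chr13:54051183-54055705, minus strand), the main D1-class receptor of the striatum, was also at low levels. Dorsal replicates 1 to 5 held 6.67, 6.22, 10.5, 7.25 and 8.16 CPM, and the Ventral replicates held 8.58, 2.81, 1.26, 4.10 and 2.78 CPM. Ventral replicate 1 lay within the Dorsal range, and the other 4 Ventral libraries lay below all Dorsal ones. The means were 7.77 ± 1.71 and 3.91 ± 2.80 CPM (SD, n = 5 each), a log2 fold change of 0.91 (SE 0.36, 95% interval 0.13 to 1.69) with an adjusted p of 0.0662 by edgeR, and Drd1 was not called. This result rested on 1 library, since without Ventral replicate 1 the log2 fold change was 1.46 with an adjusted p of 0.0055 and Drd1 was called dorsal-enriched.

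Adora1 (ENSMUSG00000042429, chr1:134199223-134235431, minus strand), the Gi-coupled A1 receptor that dampens transmitter release, was more abundant per kilobase of exon than any dopamine receptor. Its level was 163, 132, 129, 175 and 156 CPM in replicates 1 to 5 of the Dorsal group and 129, 71.4, 118, 118 and 133 CPM in those of the Ventral group. Ventral replicate 2 stood below the rest, and Ventral replicate 5 lay above Dorsal replicates 2 and 3. The means were 151 ± 19.7 and 114 ± 24.7 CPM (SD, n = 5 each), a log2 fold change of 0.40 (SE 0.15, 95% interval 0.07 to 0.72) with an adjusted p of 0.0579 by edgeR, which was not called. With GC content and length trends removed it was 0.67 with an adjusted p of 0.00806, and Adora1 was called dorsal-enriched. Of its exonic length 20.1% lies opposite Mybph, for which at most 0.204 CPM were counted.

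Adora2a (ENSMUSG00000020178, chr10:75316877-75334784, plus strand), the Gs-coupled A2a receptor that marks Drd2 neurons of the striatum, was close to the detection limit. Dorsal replicates 1 to 5 held 3, 9, 9, 10 and 4 counts and Ventral replicates 1 to 5 held 8, 4, 4, 8 and 10 counts. The levels were 0.282 to 0.612 CPM in Dorsal libraries and 0.337 to 0.505 CPM in Ventral ones, overlapping fully. Without the filter on low counts the log2 fold change was 0.19 with a 95% interval of -1.13 to 1.51 and an adjusted p of 0.888 by edgeR, an interval that includes changes of either sign.

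Gnal (ENSMUSG00000024524, chr18:67088216-67226792, plus strand), the stimulatory alpha subunit of olfactory and striatal neurons, was the most abundant of the 9 and stood above 97.1% of the tested genes by mean CPM. Its level was 504, 346, 378, 369 and 368 CPM in replicates 1 to 5 of the Dorsal group and 299, 326, 282, 306 and 351 CPM in those of the Ventral group. The groups overlapped only by Dorsal replicate 2 against Ventral replicate 5, and Dorsal replicate 1 stood above all others. The means of 393 ± 63.1 and 313 ± 26.5 CPM (SD, n = 5 each) gave a log2 fold change of 0.33 (SE 0.11, 95% interval 0.09 to 0.57) with an adjusted p of 0.0361 by edgeR. This passed the test on p but not the fold threshold, so Gnal was not called. In 5 of the 10 fits with 1 library left out its adjusted p by edgeR was above 0.05, at 0.0633 without Dorsal replicate 1, 0.0544 without Dorsal replicate 4 and 0.0675, 0.0685 and 0.073 without Ventral replicates 1, 3 and 4, and with the replicate block it was 0.0614. Of its exonic length 7.63% lies opposite Mppe1. With Gnal and Drd5, 2 of the 6 tested genes had an adjusted p below 0.05 in the fit to all libraries, against 33.6% of all tested genes in either direction.

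Ppp1r1b (ENSMUSG00000061718, chr11:98348404-98357796, plus strand), which encodes the phosphatase inhibitor DARPP-32, showed no detectable difference. It was at 8.83, 20.5, 16.3, 12.6 and 12.7 CPM in replicates 1 to 5 of the Dorsal group and at 9.86, 11.9, 12.9, 13.5 and 14.8 CPM in those of the Ventral group. The Dorsal libraries spread wider than the Ventral ones and enclosed them. The log2 fold change was 0.19 (SE 0.22, 95% interval -0.28 to 0.66) with an adjusted p of 0.53 by edgeR, so a change of up to the upper bound could not be told from none. Of its exonic length 15.7% lies opposite 1700003D09Rik. The log2 fold changes of the 6 tested genes had a median of 0.42, with 6 above 0, beside a median of -0.0044 over all tested genes.

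Levels per kilobase of exon adjust for annotated exonic length alone, and not for GC content or for stretches shared with other genes. The order below and the ratios between genes carry this limit. Over the 10 libraries the order began with Gnal (31.6 ± 5.57 CPM per kilobase, mean and SD, n = 10), Adora1 (22.9 ± 4.97) and Drd2 (9.58 ± 2.17). Ppp1r1b (4.57 ± 1.13), Drd1 (1.61 ± 0.823) and Drd5 (1.27 ± 0.893) followed, then Adora2a (0.147 ± 0.0406), Drd4 (0.00793 ± 0.0137) and Drd3 (0). Gnal exceeded Adora1 in 10 of 10 libraries although their ranges over libraries overlapped, and so did Adora1 over Drd2 and Drd2 over Ppp1r1b. Drd1 and Drd5 did not differ beyond their spread, with Drd1 the higher in 7 of 10 libraries. Drd5 exceeded Adora2a in 10 of 10 libraries, at means of 2.04 against 0.156 CPM per kilobase in Dorsal and 0.503 against 0.138 in Ventral libraries. In Ventral replicates 3 and 4 they were closest, at 0.214 against 0.11 and 0.22 against 0.165 CPM per kilobase.

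**Figure D2:**
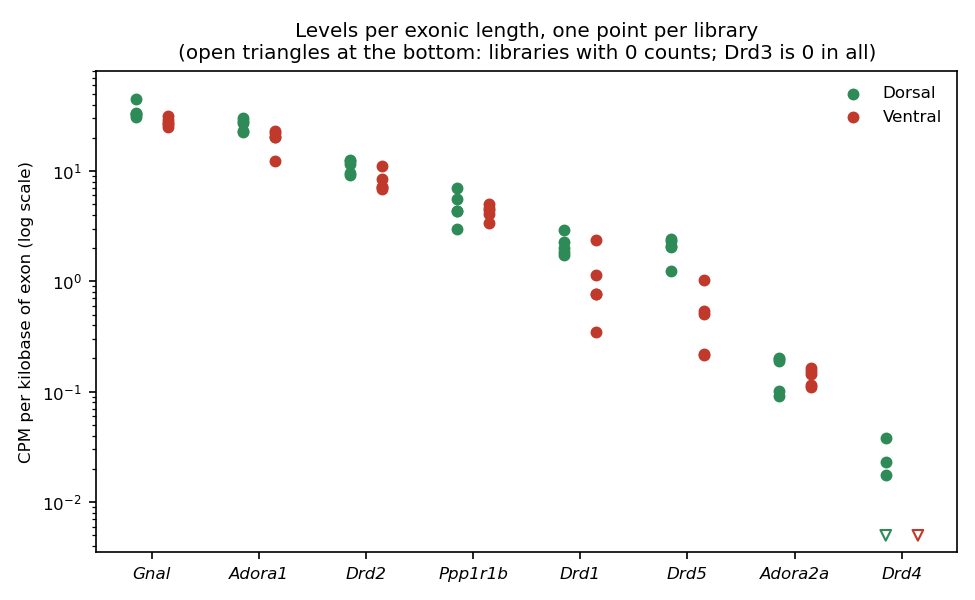
Level of each gene per kilobase of exon on a log axis, 1 point per library, Dorsal in green and Ventral in red, with open triangles at the bottom for libraries with 0 counts. The genes span from 31.6 CPM per kilobase for Gnal to 0.147 for Adora2a, and Drd4 was counted in 3 Dorsal libraries only.

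Ratios between these genes were compared with exact permutation tests, two-sided, adjusted over the 5 ratios examined. The smallest p that 5 against 5 libraries allow is 0.00794. Drd2 made up 74.4, 76.1, 63.7, 75.1 and 72.6% of the summed dopamine receptor level per kilobase in Dorsal replicates 1 to 5 and 71.4, 85.9, 92.4, 84.0 and 86.7% in Ventral replicates 1 to 5. Ventral replicate 1 lay among the Dorsal libraries and the other 4 lay above all of them. The Dorsal mean of 72.4 ± 5.01% and the Ventral mean of 84.1 ± 7.76% (SD, n = 5 each) differed with an exact permutation p of 0.0397 and an adjusted p of 0.0992, which did not pass the threshold. Without Ventral replicate 1 the difference was -14.9 percentage points, dorsal minus ventral, with an adjusted exact permutation p of 0.0397.

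The ratio of Gnal to Gnas, the stimulatory alpha subunit of most other cells, was 6.37, 5.77, 8.28, 5.48 and 5.01 in Dorsal replicates 1 to 5 and 2.26, 4.28, 4.0, 3.65 and 4.50 in Ventral replicates 1 to 5. All Dorsal libraries lay above all Ventral ones. On the log2 scale the means were 2.61 ± 0.278 and 1.86 ± 0.401 (SD, n = 5 each), a difference of 0.74 (exact permutation p = 0.00794, adjusted p = 0.0397). Without Dorsal replicate 3, the library with the highest ratio, the adjusted exact permutation p was 0.0794, past the threshold no longer. Gnas itself, at 64.2 ± 13.0 against 87.5 ± 25.3 CPM (SD, n = 5 each), had an adjusted p of 0.0715 by edgeR and was not called. Of its exonic length 22% is shared with Gm20721 and Nespas on the other strand.

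Adora1 exceeded Adora2a per kilobase in 10 of 10 libraries, and the log2 ratios, with 0.1 CPM per kilobase added to each gene, averaged 6.69 ± 0.438 on the dorsal side and 6.35 ± 0.304 on the ventral (SD, n = 5 each, adjusted exact permutation p = 0.248). The constant lowers this ratio, since it is close to the level of Adora2a itself. Without it the geometric mean ratio was 176 in Dorsal and 142 in Ventral libraries, against 104 and 81.7 with it, and the adjusted exact permutation p was 0.446. Adora2a, the partner of Drd2 in the striatum, stood at 0.0135 of the Drd2 level in Dorsal and 0.017 in Ventral libraries without the constant (adjusted exact permutation p = 0.446), and at 0.0228 and 0.0292 with it (adjusted exact permutation p = 0.248). Ppp1r1b stood at 0.13 of the level of its paralog Ppp1r1a (inhibitor 1) in Dorsal and 0.119 in Ventral libraries, with an adjusted exact permutation p of 0.794. In 10 of 10 libraries ribosome-bound RNA of inhibitor 1 was therefore higher per kilobase than that of DARPP-32, and protein was not measured.

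**Figure D3:**
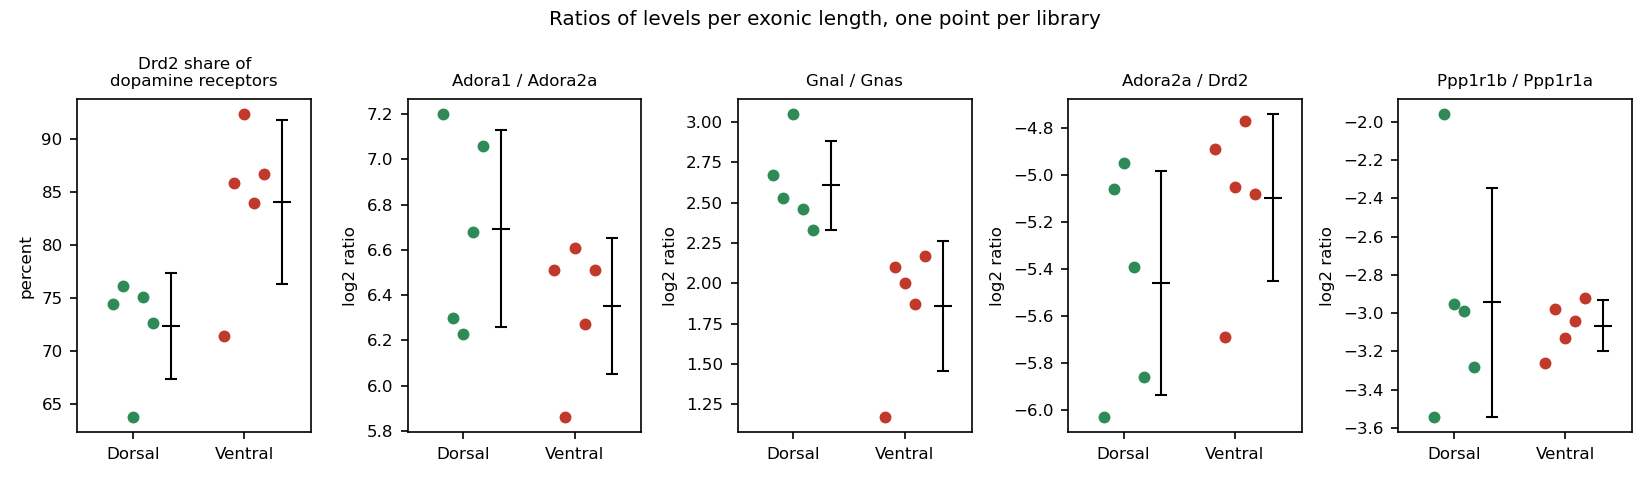
The 5 ratios of levels per kilobase of exon, 1 point per library (Dorsal green, Ventral red) with mean and SD in black, in percent for the Drd2 share and as log2 ratios for the rest. The groups separate for Gnal over Gnas (log2 2.33 to 3.05 in Dorsal, 1.17 to 2.17 in Ventral libraries) and overlap for the other 4, and the axes do not start at 0.

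The classical partners of these genes were read whatever their result. Adcy5, the striatal adenylyl cyclase that Gnal activates, was at 42.4 ± 3.75 CPM on the dorsal side and 26.7 ± 3.47 CPM on the ventral (SD, n = 5 each), 1.57-fold higher and called dorsal-enriched (adjusted p = 0.00248 by edgeR). Gng7, the gamma subunit that assembles with Gnal in the striatum, was at 114 ± 23.1 and 79.5 ± 7.74 CPM, 1.44-fold higher with an adjusted p of 0.0123, under the fold threshold. Ptpn5, a tyrosine phosphatase enriched in the striatum, was at 122 ± 10.1 and 67.9 ± 18 CPM, 1.80-fold higher (adjusted p = 0.00175) and called dorsal-enriched. Ppp1ca, the catalytic phosphatase 1 subunit that DARPP-32 inhibits, was at 73.7 ± 6.10 and 102 ± 9.31 CPM, 0.725 of the ventral level with an adjusted p of 0.00523 and again under the fold threshold. Pde10a, a striatal phosphodiesterase, was at 87.3 and 90.9 CPM (adjusted p = 0.773), Ppp1r1a at 48.4 and 47.8 CPM (adjusted p = 0.958), and Rgs9, a striatal brake on G protein signalling, at 6.18 ± 4.6 and 4.13 ± 0.533 CPM (adjusted p = 0.279). Of the 8 partners, 2 were thus called dorsal-enriched and 0 ventral-enriched, beside 15.7% and 9.85% of all tested genes.

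**Figure D4:**
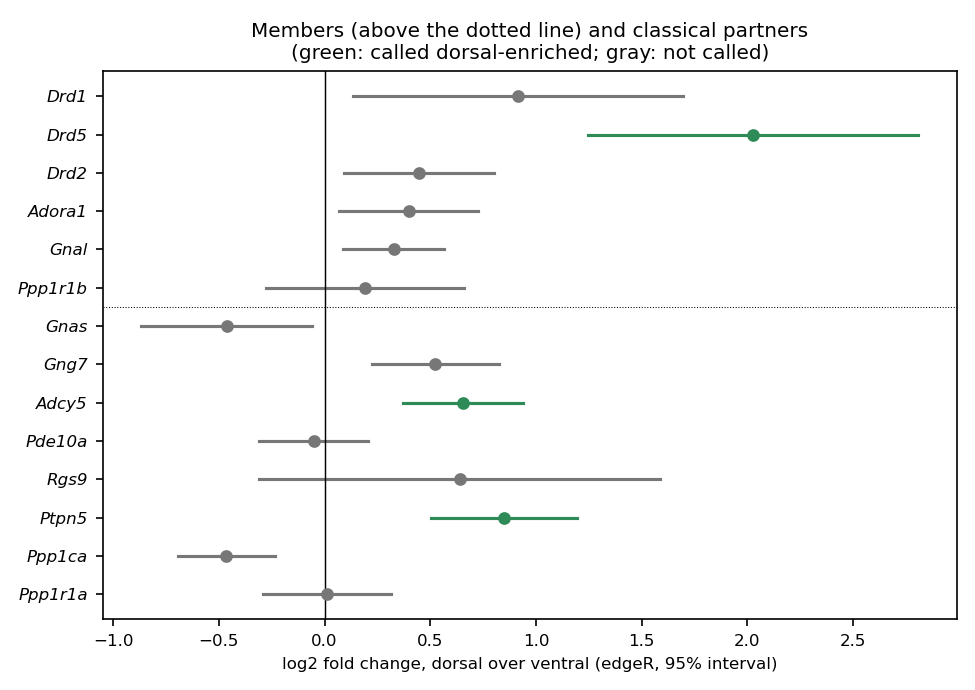
Log2 fold change of dorsal over ventral by edgeR with its 95% interval for the 6 tested members, above the dotted line, and the 8 classical partners below it, with called genes in green and the rest in gray. Drd5 (2.03), Ptpn5 (0.85) and Adcy5 (0.65) are called, and the interval of Ppp1r1b, Pde10a, Rgs9 and Ppp1r1a includes 0.

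Over the wider pathway, 86 of 90 genes in 7 lists were tested, with 8 calls on the dorsal side and 7 on the ventral side. Their log2 fold changes had a median of -0.11. Over all tested genes the shares called were 15.7% and 9.85%, and the median was -0.0044. Among 16 G protein subunits, 0 were called dorsal-enriched by edgeR or DESeq2 (2 were higher and 5 lower at an unadjusted p below 0.05 by edgeR, and 13 of the 16 log2 fold changes lay below 0) and 1, the gamma subunit Gng3, was called ventral-enriched (296 against 443 CPM, adjusted p = 0.00164 by edgeR). Among 15 receptor regulators, Grk5, a kinase that desensitizes receptors, was 2.46-fold higher in dorsal libraries (53.5 ± 15 against 21.8 ± 2.81 CPM, adjusted p = 0.000321) and was called dorsal-enriched. Rgs4, which shortens Gi signalling, was at 162 ± 38.5 against 252 ± 17.4 CPM and called ventral-enriched (adjusted p = 0.0032).

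The cAMP list held 16 genes, of which 2 were called in each direction. Adcy1, a calcium-stimulated cyclase, was 2.25-fold higher in dorsal libraries (741 ± 71.4 against 329 ± 44.6 CPM, adjusted p = 1.63e-05 by edgeR), beside Adcy5. Prkacb, a catalytic subunit of cAMP-dependent protein kinase, was at 416 against 686 CPM and Pde1a, a calcium-dependent phosphodiesterase, at 321 against 531 CPM, both called ventral-enriched (adjusted p = 0.000253 and 0.000133). In the DARPP-32 phosphatase network of 18 genes, Ptpn5 and the phosphatase 1 scaffold Ppp1r9b (202 against 122 CPM, adjusted p = 0.00904) were called dorsal-enriched. Cdk5, the kinase that turns DARPP-32 into an inhibitor of the kinase PKA, was at 36.9 against 58.0 CPM (adjusted p = 0.00281), and the phosphoprotein Arpp21 was at 152 against 230 CPM (adjusted p = 0.00519), both called ventral-enriched.

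Of 9 effectors of D2 receptors, the potassium channel subunits that Gi-coupled receptors open moved in both directions. Kcnj3 was at 294 ± 46.6 against 156 ± 25.1 CPM and Kcnj6 at 31.7 ± 2.47 against 14.8 ± 5.06 CPM, both called dorsal-enriched (adjusted p = 0.000325 and 0.00128 by edgeR). Kcnj9, another subunit of the family, was at 21.4 ± 2.70 against 41.5 ± 9.15 CPM and called ventral-enriched (adjusted p = 0.00112). The Akt and Gsk3 kinases of the list were not called.

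Of 7 genes of dopamine synthesis, uptake and breakdown, 5 passed the filter. Th, the rate-limiting enzyme of dopamine synthesis, reached at most 0.476 CPM and the dopamine transporter Slc6a3 at most 0.111 CPM, and neither was tested. Ddc, which decarboxylates L-DOPA to dopamine, was at 4.91 against 3.51 CPM and was not called (adjusted p = 0.347 by edgeR). Slc18a2, the vesicular monoamine transporter, was at 16.6 ± 4.85 against 8.34 ± 1.74 CPM and was called dorsal-enriched (SD, n = 5 each, 2.02-fold, adjusted p = 0.00669 by edgeR), the only call among the 5 tested genes of that list. Of the 7 tested genes of adenosine receptors, production and removal, 0 were called by edgeR or DESeq2, with 2 higher and 1 lower in dorsal libraries at an unadjusted p below 0.05 by edgeR. The A2b receptor Adora2b was at 0.70 against 0.158 CPM with an adjusted p of 0.0533.

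**Figure D5:**
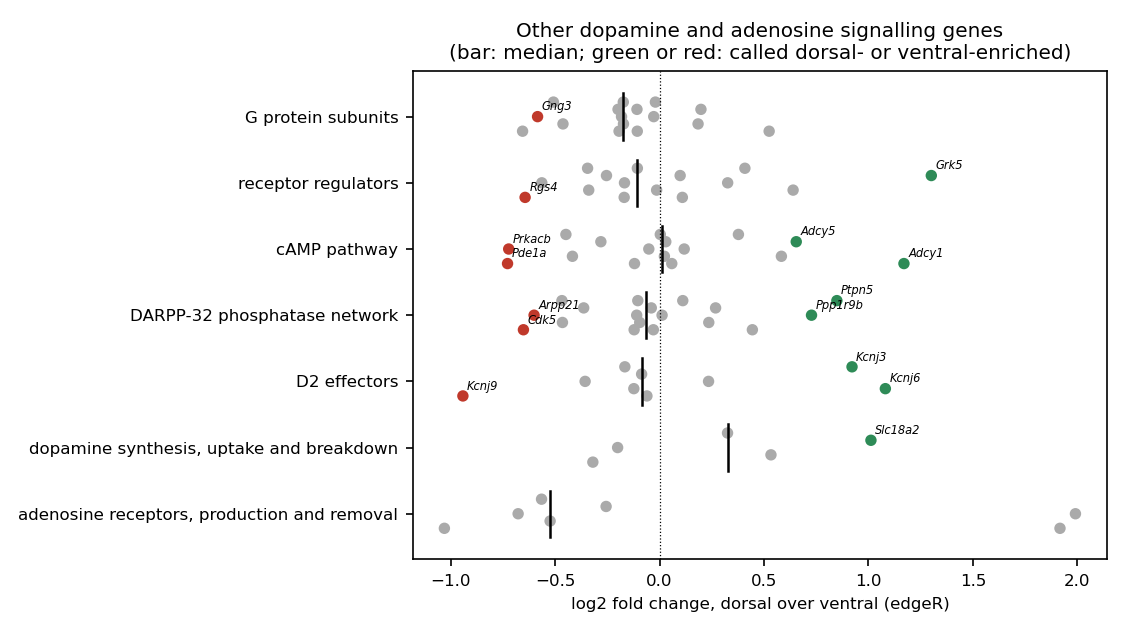
Log2 fold change of dorsal over ventral for the 86 tested genes of the 7 signalling lists, with the median of each list as a black bar, genes called dorsal-enriched in green, ventral-enriched in red and the rest in gray. In 4 of the 7 lists calls stand on both sides of 0, and the adenosine list has 0 calls.

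Of the 5 genes read next to Drd2 on chromosome 9, 3 were tested. Of these 3, 0 were called dorsal-enriched and 1 ventral-enriched, beside 15.7% and 9.85% of all tested genes, too few genes to compare with those shares. Ttc12 was called ventral-enriched (4.14 ± 2.39 against 10.5 ± 5.31 CPM, adjusted p = 0.022 by edgeR), Zw10 and Ncam1 were not called (adjusted p = 0.0819 and 0.30), and Ankk1 and Tmprss5 were too low to test. The 5 protein-coding genes whose profile over the 10 libraries was most like that of Drd2, by the root-mean-square difference of centred log2(CPM + 1) among 13549 genes, were Slc6a8 (0.107), Ncbp3 (0.13), Panx1 (0.135), Phrf1 (0.137) and Cd2bp2 (0.138), beside an SD of 0.303 for Drd2 itself.

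Several measures of the libraries moved with the groups. Counts on genes ranged from 11138676 to 20594364 per library and overlapped between groups (exact permutation p = 0.421, n = 5 each), but the share of read pairs on no gene was 21.8 to 33.9% in Dorsal and 11.6 to 19.3% in Ventral libraries (exact permutation p = 0.00794). Genes of the mitochondrial genome summed to 18000 to 21000 CPM in Dorsal and 3370 to 7720 CPM in Ventral libraries (exact permutation p = 0.00794). Of 8 mossy cell markers 7 were tested, with 2 called in each direction. Gria2 (1141 against 649 CPM) and Gria3 (270 against 166 CPM) were called dorsal-enriched, and Satb1 (270 against 449 CPM) and Calb2, calretinin of ventral mossy cells (65.0 against 615 CPM), ventral-enriched. Gria3 and Calb2 were named after their values were seen, and Csf2rb2 stayed under the filter. Interneuron markers were abundant in both groups (Gad2 2848 against 3168 CPM, not called; Sst 453 against 714 CPM, ventral-enriched), with 3 of 9 called ventral-enriched. Their summed level was 3510 to 4570 CPM in Dorsal libraries and 4250 to 5640 CPM in Ventral ones.

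Summed markers of striatal medium spiny neurons, the best known site of DARPP-32 signalling, of astrocytes and of oligodendrocytes were higher on the dorsal side. Of 10 striatal markers, 5 passed as dorsal-enriched against 1 as ventral-enriched, and their summed level was 297 to 334 CPM in Dorsal libraries and 183 to 289 CPM in Ventral ones. The most abundant, Foxp1 (193 against 160 CPM), was not called, whereas the transcription factors Isl1 (9.81 against 1.93 CPM) and Six3 (10.1 against 0.994 CPM), singled out after their values were seen, were. Astrocyte markers summed to 1830 to 2080 CPM in Dorsal libraries and 658 to 1210 CPM in Ventral ones (4 of 6 called dorsal-enriched and 1 ventral-enriched). Most of that sum was Slc1a2 (1771 against 868 CPM), and the ventral-enriched marker was Aldh1l1 (1.17 against 4.15 CPM, adjusted p = 0.0164 by edgeR), named after its values were seen. Oligodendrocyte markers summed to 2200 to 2570 CPM in Dorsal and 791 to 1450 CPM in Ventral libraries (3 of 6 dorsal-enriched). With mitochondrial genes left out of the fit the Drd5 log2 fold change was again 2.03 (adjusted p = 0.00121 by edgeR). The part of these cells, of what set the mitochondrial level or of the share of read pairs on no gene, in the Drd5, Adcy5 and Ptpn5 values was not tested.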

How the data were processed

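The 10 libraries are ribosome-bound RNA from pools of 5 mice. According to the study's methods, precipitated RNA was amplified (Ovation RNA-Seq V2), TruSeq libraries were sequenced as paired ends of 50 bp, and reads were aligned to GRCm38 with STAR 2.5.2b. The values deposited by the authors are whole-number counts per Ensembl gene from HTSeq 0.7.2, with no normalization or filter. The annotation release and the strand setting are not given in the sources used here.

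From these counts, TMM factors and edgeR's quasi-likelihood test (edgeR 4.0.16, R 4.3.3) were computed over the 16806 genes above 1 CPM in at least 2 libraries, with Benjamini-Hochberg adjustment over all of them. The thresholds for a call were an adjusted p of 0.05 and a log2 ratio of 0.58 between group means of CPM with 1 added, in either direction. The read pairs on no gene, 11.6 to 33.9% per library, stayed out of library sizes. Depth was 11138676 to 20594364 counts on genes. Symbols, coordinates and exonic lengths came from GENCODE M21, where overlapping genes share exons on the opposite strand, and promoter windows from RefSeq. Ratios use CPM per kilobase with 0.1 added to each gene of a log2 ratio.

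The genes and lists were chosen with earlier results of these data known. Named are the 9 genes, 8 classical partners, called genes of each signalling list (at most 4 per direction), leading markers (1 is not reported here), the neighbours of Drd2 and the 5 genes most like it in profile. Marker lists not described in the report had these calls in the Dorsal and Ventral direction: granule cell 2 and 1 of 6, pyramidal cell 2 and 0 of 8, microglia 1 and 0 of 5, endothelial 0 and 0 of 4, choroid plexus 1 and 0 of 4. The alternatives were other scalings, filters and thresholds, the exact and likelihood-ratio tests of edgeR, DESeq2 1.42.0, GC and length offsets (mgcv 1.9.3), a replicate block, gene subsets and each library left out. The quasi-likelihood dispersions of edgeR 3 and ratios without the constant were added after seeing the data. The count tests were tested on simulated data, and the limit on false calls set for the alternative tests was widened after the first run.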

Additional observations from a re-analysis of the deposited data

Results flagged for a closer look

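Of 26 groups of 5 libraries, that of Drd4 in Ventral libraries was 0 throughout and could not be examined. In 3 of the other groups, 1 library stood apart from the other 4 by Dixon's criterion, which flags about 1 group in 20 by chance. Adora1 was at 71.4 CPM in Ventral replicate 2, against 118 to 133 CPM in the other Ventral libraries. Gnal was at 504 CPM in Dorsal replicate 1, against 346 to 378 CPM in the other Dorsal libraries. The Drd2 share of the dopamine receptor level was 63.7% in Dorsal replicate 3, against 72.6 to 76.1% in the other Dorsal libraries.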

How the results depend on the processing

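Drd5 was called dorsal-enriched under each of the 17 alternatives (log2 fold change 2.02 to 2.19) and with each library left out (1.85 to 2.33), and 0 of the 9 genes were called ventral-enriched in any of them by edgeR or DESeq2. The number called dorsal-enriched was 2 without the filter on low counts (Drd1 added, adjusted p = 0.0445) and 2 without the fold threshold (Gnal added). It was 3 with GC content and length offsets and 3 with those offsets and the replicate block together (Drd2 and Adora1 added), and 1 to 2 with 1 library left out. With the replicate block alone it was 1, with Drd5 at 2.06 (adjusted p = 0.0056). Among all tested genes, 3158 of 36531 were called dorsal-enriched without the filter and 3191 of 16806 without the fold threshold. With the offsets 2796 of 16795 were called dorsal-enriched, and with the offsets and the block together 2848 of 16795. Same-numbered libraries deviated from their group means with correlations of -0.0317 to 0.0695, which gave no sign that equal numbers pair the libraries, and the block is given as an alternative only. Among the other signalling genes, 14 and 15 passed without the fold threshold in the Dorsal and Ventral direction, and 7 to 11 and 5 to 8 with 1 library left out. Over all genes, 1498 and 897 were called at an adjusted p below 0.01, 1643 dorsal-enriched among protein-coding genes alone, and 2104 to 2670 and 1215 to 1815 with 1 library left out. With same-numbered libraries paired, the difference of the Gnal to Gnas log2 ratio stayed at 0.744 with an adjusted exact permutation p of 0.208, in a design whose smallest unadjusted p is 0.0625. With 1 library left out it was 0.572 to 0.821, and without Dorsal replicate 3 it no longer passed. The Ppp1r1b to Ppp1r1a difference was -0.122 to 0.272, negative at -0.122 without Dorsal replicate 2. The Drd2 share differed by -14.9 to -9.52 percentage points, passing only without Ventral replicate 1. Without the constant (added after seeing the data) the 4 log2 ratios stayed on their side of the threshold. The cause of these changes was not tested. Low counts limit Drd1 and Drd5, and leave Drd3, Drd4 and Adora2a without a usable comparison.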
